A study of Homo sapiens with 2 samples.

Results

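Called EGR1 intervals were looked for at 7 genes of decidualization: the regulators FOXO1, ZBTB16, HAND2, CEBPB and WNT4, and the secreted decidual markers PRL and IGFBP1. The intervals came from chromatin immunoprecipitation and sequencing (ChIP-seq) in t-HESC, an immortalised human line of endometrial stroma, the fibroblast-like tissue under the epithelium of the uterus. An interval was counted for a gene where any of its bases lay in the gene body or within 10 kb of it, on build GRCh37. By this rule 3 intervals were found, of 7709 on 23 chromosomes. The series held 1 ChIP library made with an EGR1 antibody and 1 input library of sonicated chromatin, both from cells kept in growth medium with puromycin and given no treatment, so no hormone had been added to start decidualization. Neither library had a replicate, so no difference could be tested, and no p-value is given. No read totals were used, and the depth is unknown. Expression was not measured in these data, and the stromal or decidual state of the cells could not be checked against marker genes. The EGR1 motif under the intervals and their strength over the input were not analysed here. An interval is therefore a place where the authors called enrichment, and is not shown to be a site of EGR1 binding.

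EGR1 is a zinc-finger transcription factor made within minutes to hours of growth factor or stress signals, and it recognises short GC-rich DNA. Decidualization is the change of endometrial stromal fibroblasts into rounded, secretory decidual cells under progesterone and cyclic AMP. It is driven by transcription factors that act together with the progesterone receptor, among them FOXO1, CEBPB, HAND2 and ZBTB16, and by the signalling molecule WNT4. PRL (prolactin) and IGFBP1 are proteins that decidual cells secrete and by which the change is commonly followed.

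The sequence just before the start of a gene shows how rich in G and C each start is. RefSeq promoter sequences on GRCh38 were at hand for 5 of the 7 genes, matched by symbol. ZBTB16 and IGFBP1 were not matched. The 250 bases before the start are given on the gene's own strand, 5′ to 3′, from the minus strand for FOXO1, HAND2, WNT4 and PRL and from the plus strand for CEBPB. Capitals mark the GC box GGGCGG or its complement CCGCCC, and overlapping matches run together. The GC box is a different sequence from the EGR1 consensus, whose letters are given below. CEBPB has 2 starts in the table and its upstream one is shown.
FOXO1: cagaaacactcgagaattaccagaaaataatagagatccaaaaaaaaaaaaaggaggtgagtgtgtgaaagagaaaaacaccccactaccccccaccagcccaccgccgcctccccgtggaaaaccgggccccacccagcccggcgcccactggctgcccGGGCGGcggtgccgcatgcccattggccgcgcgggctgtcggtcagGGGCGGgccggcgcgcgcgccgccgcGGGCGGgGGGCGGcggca
HAND2: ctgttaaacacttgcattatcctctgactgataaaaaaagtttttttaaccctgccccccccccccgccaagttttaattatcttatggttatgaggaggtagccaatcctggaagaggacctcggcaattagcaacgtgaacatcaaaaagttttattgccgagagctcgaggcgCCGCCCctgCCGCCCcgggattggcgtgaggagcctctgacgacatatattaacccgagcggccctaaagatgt
CEBPB: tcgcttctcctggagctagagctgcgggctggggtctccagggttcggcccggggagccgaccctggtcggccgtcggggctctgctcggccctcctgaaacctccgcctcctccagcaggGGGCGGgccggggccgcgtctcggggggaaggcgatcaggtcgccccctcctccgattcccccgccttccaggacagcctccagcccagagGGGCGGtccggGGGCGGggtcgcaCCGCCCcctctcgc
WNT4: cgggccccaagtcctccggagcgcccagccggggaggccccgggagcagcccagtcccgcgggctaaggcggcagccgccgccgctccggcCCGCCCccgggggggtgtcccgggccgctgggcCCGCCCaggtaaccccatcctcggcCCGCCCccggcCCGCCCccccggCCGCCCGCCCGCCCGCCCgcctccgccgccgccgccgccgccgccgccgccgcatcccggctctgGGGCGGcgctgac
PRL: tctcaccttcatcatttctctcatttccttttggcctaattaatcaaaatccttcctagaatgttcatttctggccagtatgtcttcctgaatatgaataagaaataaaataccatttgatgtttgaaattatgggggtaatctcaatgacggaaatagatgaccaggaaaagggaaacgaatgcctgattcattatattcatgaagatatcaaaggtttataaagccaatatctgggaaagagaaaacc
None of the 5 genes, at either CEBPB start, had an exact match to GCGTGGGCG or GCGGGGGCG, the EGR1 consensus letters, on either strand of these bases. Of all 35116 promoter entries, 0.72% held the first and 4.72% the second. The best inexact match to either sequence was 8 of 9 letters in FOXO1, HAND2, WNT4 and at both CEBPB starts. In PRL it was 5 of 9. A match of at least 8 of 9 letters was held by 35.1% of all entries. The GC box was counted 9 times in WNT4, 4 times each in FOXO1 and CEBPB, 2 times in HAND2 and not at all in PRL. At the second CEBPB start, which is not printed, the 250 bases before it held 5 GC boxes and were 77.6% G or C. At least 1 GC box was held by 42.6% of all entries, and at least 4 by 7.63%. Matches may overlap one another, and a GC box may share bases with the EGR1 consensus. Base composition differed widely, from 86.8% G or C in WNT4 through 75.6% before the CEBPB start shown, 67.2% in FOXO1 and 49.6% in HAND2 to 34.0% in PRL, against a median of 58% over all entries. The PRL start in the table lies inside the gene body, at the start used in the pituitary, whereas decidual PRL transcripts begin further upstream. No EGR1 interval lay over or within 10 kb of any of these starts other than the starts of CEBPB and HAND2, as set out below. These letters come from GRCh38 and the intervals from GRCh37, and positions were not converted between them.

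HAND2, a basic helix-loop-helix factor that progesterone induces in the stroma and that restrains growth factor signalling to the epithelium, was the gene with the most EGR1 intervals. It had 2, both beyond the end of its transcript. As a background, windows as long as the gene plus 20 kb were laid end to end over the gene's chromosome. For HAND2, 2.85% of such windows held at least 1 interval and 0.435% held at least 2, and on all chromosomes 4.90% and 1.09% did. HAND2 lies on the minus strand of chromosome 4 at positions 174447652 to 174451378, and both intervals lay at lower coordinates. The nearer one, chr4:174446241-174446704, ended 947 bp from the gene body. It was 464 bp wide, wider than 71.9% of all intervals, whose median width was 343 bp. Its summit, the point of highest signal, lay 4978 bp from the gene start, 1252 bp past the gene end. The authors' score of this summit was 21. The score is a whole number with no stated unit, and it was used only to rank intervals within this list.

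The farther HAND2 interval, chr4:174444056-174444265, lay 3386 bp from the gene body and was 210 bp wide, close to the smallest width of 207 bp. Its summit had a score of 16, and 5.38% of all intervals scored lower. The nearer interval's score of 21 was above that of 27.4% of all intervals. A stretch of 1975 bp separated the 2 intervals and their summits lay 2304 bp apart. On the other side, where HAND2 transcription starts and the antisense gene HAND2-AS1 lies next to it in the RefSeq gene order, no interval was called for 1881.9 kb. The RefSeq HAND2 model on GRCh38 is 412 bp longer than the span used here. If all of that length lay at this end, the nearer interval would still be 535 bp outside the gene.

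CEBPB, a basic leucine zipper factor that responds to cyclic AMP and is required for decidualization in mice, had 1 EGR1 interval, and it lay inside the gene. Of windows as long as that of CEBPB, 5.56% on its chromosome and 4.58% on all chromosomes held an interval. CEBPB is on the plus strand of chromosome 20 at positions 48807120 to 48809227 and is a gene of a single exon, so the interval is exonic. Its coding or untranslated position was not analysed here. The interval, chr20:48808350-48808557, covered the bases 1230 to 1437 bp past the gene start. Its summit lay 1328 bp past the start, at 63% of the gene's length of 2108 bp, and 779 bp before the gene end. RefSeq gives CEBPB the same length on GRCh38. The interval did not reach back to the gene start, whose upstream bases with 4 GC boxes are shown above. At 208 bp it was narrower than 94.7% of all intervals. The summit score was 22, above that of 32% of all intervals. The nearest other interval lay 78934 bp away.

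All 3 intervals scored below the median of this list, and only the farther HAND2 interval scored below its lower quartile. The 3 scores were 16, 21 and 22. The list ran from 11 to 336 with a median of 26 and quartiles of 20 and 37. None of the 3 reached the median, where 51.0% of all intervals did, and none reached the 90th percentile of 57, where 10.2% did. A total of 4867 intervals scored higher than the CEBPB interval, the highest of the 3. The intervals of HAND2 and CEBPB with widths of 210 and 208 bp were among the narrowest in the list, and the nearer HAND2 interval was in between the median and the upper quartile of 490 bp. With 3 intervals, these are descriptions of each one and not of a group. Each of the 3 summits was an exact multiple of 32 bp, as were 77.2% of all summits, so the distances of summits given here may be no finer than that.

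**Figure D1:**
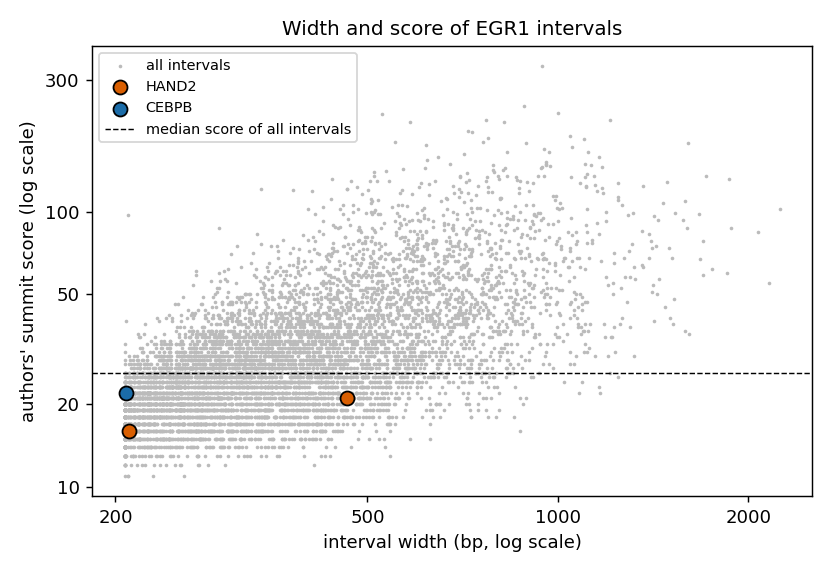
Interval width in bp (x, log scale) against the authors' summit score (y, log scale) for all 7709 EGR1 intervals (grey) and for those at HAND2 (orange) and CEBPB (blue), with the median score of 26 as a dashed line. All 3 coloured points lie under the dashed line, and the CEBPB point and 1 HAND2 point sit at the narrow edge of the list.

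FOXO1, the forkhead factor that works with the progesterone receptor at PRL and IGFBP1, had no EGR1 interval in its body or within 10 kb. Windows as long as FOXO1 plus 20 kb held at least 1 in 14.8% of cases on chromosome 13 and in 19.9% on all chromosomes. The gene spans 110934 bp on the minus strand of chromosome 13, at positions 41129801 to 41240734. The nearest interval, chr13:41364002-41364322, lay 123.3 kb beyond the gene start and had a score of 30. Between 394 and 466 kb from FOXO1 on the same side lay the highest-scored intervals within 500 kb of any of the 7 genes. The one at chr13:41634425-41636287 had a score of 131 and a width of 1863 bp, and the one at chr13:41706608-41707116 had a score of 109. MRPS31 and SLC25A15 are the next protein-coding genes on that side in the RefSeq order, and which genes these intervals overlap was not analysed here. On the other side the nearest interval was 952.6 kb away.

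ZBTB16 (PLZF), a zinc-finger repressor strongly induced by progesterone in stromal cells, had no interval either, although its window was the longest. An interval was present in 30.0% of windows of that length on chromosome 11 and in 27.6% on all chromosomes. The gene spans 190967 bp of chromosome 11, at positions 113930431 to 114121397. The nearest interval, chr11:114271216-114271557, had a score of 34 and lay 149.8 kb beyond the end with the higher coordinate. It was the only interval within 500 kb of ZBTB16. On the other side no interval was called for 1779.1 kb, and the interval there scored 68.

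WNT4, the secreted ligand that acts downstream of BMP2 in stromal cells, had no interval within 10 kb. The bases before its start were the richest in GC boxes of the 5 shown, with some matches overlapping. Whether GC boxes go with intervals was not tested. The share of windows as long as WNT4 plus 20 kb with an interval was 10.8% on chromosome 1 and 8.80% on all chromosomes. WNT4 lies on the minus strand of chromosome 1, at positions 22443798 to 22470385. The nearest interval, chr1:22262586-22263434, had a score of 26 and lay 180.4 kb past the gene end, on the side of CDC42 in the RefSeq order. Beyond the gene start the nearest was 307.9 kb away, with a score of 14. A stretch of 514.8 kb around WNT4 thus held no called interval.

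Neither decidual marker had an EGR1 interval within 10 kb. Windows as long as the gene plus 20 kb held an interval in 6.04% (PRL) and 4.38% (IGFBP1) of cases on the gene's own chromosome. On all chromosomes the shares were 6.99% and 5.16%. PRL, at positions 22287473 to 22303082 of chromosome 6, stood farthest from any interval, with the nearest at 690.3 kb and a score of 17. PRL was the only 1 of the 7 genes with no interval within 500 kb, and the stretch around it without a called interval was 2897.7 kb long. IGFBP1, the insulin-like growth factor binding protein of the decidua, lies at positions 45927959 to 45933267 of chromosome 7. Of the 5 genes without an interval it had the nearest one, chr7:45961089-45961307, at 27.8 kb. This interval had a score of 15 and lay on the side of IGFBP3, the next protein-coding gene in the RefSeq order. A second one on that side, 84.6 kb from IGFBP1, had a score of 48. On the other side the nearest was 776.3 kb away.

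**Figure D2:**
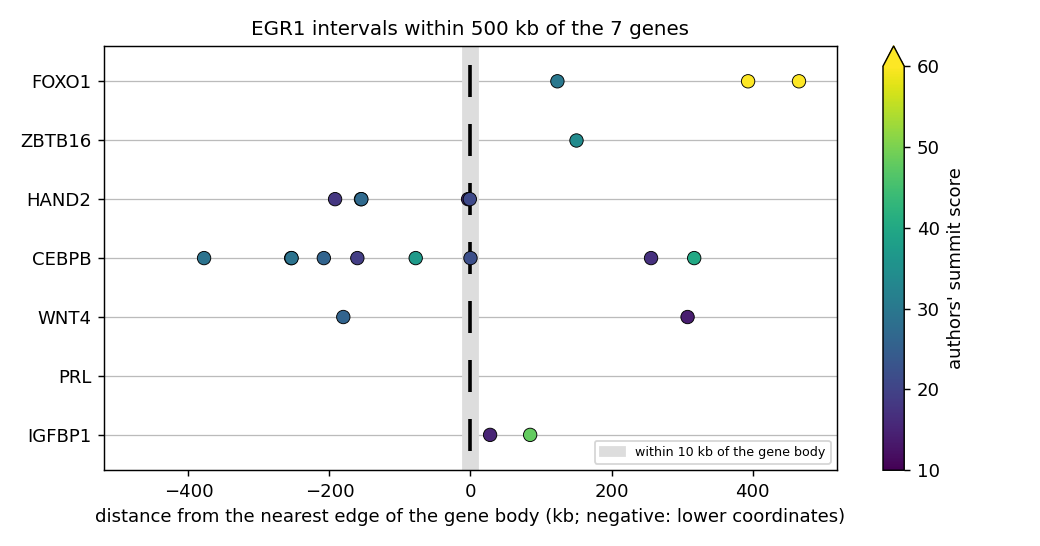
EGR1 intervals within 500 kb of each of the 7 genes, by distance in kb from the nearest edge of the gene body (x; negative values are lower coordinates, and 0 is inside the gene). Each point is 1 interval coloured by the authors' summit score, with scores over 60 in the top colour, the black tick is the gene body drawn at no width, and the grey band is the 10 kb used to count. Points fall in the band at HAND2 (2, overlapping) and CEBPB (1), and the PRL line is empty.

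No interval lay close to the limit of 10 kb on either side. The farthest one counted was the HAND2 interval at 3386 bp, and the nearest one left out was the IGFBP1 interval at 27.8 kb. With the distance widened to 50 kb there were 4 intervals at 3 genes, where the mean density of the list, 2.65 per Mb, would give 2.8 intervals over the same length. Within 100 kb there were 6 at 3 genes, against 4.65 at that density, and within 200 kb 13 at 6 genes, against 8.36. Within 500 kb there were 22 intervals, against 19.5. Of these, 9 lay around CEBPB, 5 around HAND2, 3 around FOXO1, 2 each around WNT4 and IGFBP1, and 1 around ZBTB16. The share of windows with an interval was computed only for 10 kb, so the numbers of genes at wider distances have no background here. The density was taken from the first to the last interval of each chromosome, regions without genes included. On the genes' own chromosomes it ran from 1.42 per Mb (chromosome 4) to 3.38 per Mb (chromosome 11).

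Read against length alone, the windows of the 5 genes without an interval were in the common state. Between 70.0% (ZBTB16) and 95.6% (IGFBP1) of windows of the same length on their chromosomes held none. HAND2 and CEBPB, the shortest of the 7 genes, were the ones with intervals. Summed over the 7 genes, the shares of windows with an interval on the gene's own chromosome come to 0.744 genes, and 2 were found. The windows take in regions without genes and unsequenced gaps, which the windows of genes do not, and shares for windows around all genes were not analysed here.

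**Figure D3:**
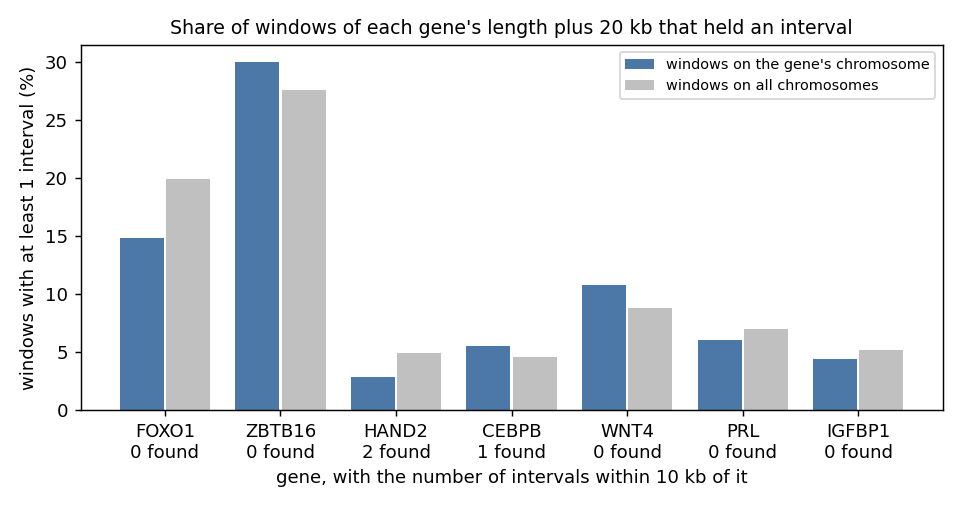
Percentage (y) of windows laid end to end, each as long as the named gene (x) plus 20 kb, that held at least 1 EGR1 interval, on the gene's own chromosome (blue) and on all chromosomes (grey). HAND2 and CEBPB, which had intervals, have short windows with shares of 2.85% and 5.56% on their own chromosomes, and ZBTB16 has the highest share, 30.0%, with 0 found.

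Taken by length, the 7 windows summed to 495.2 kb and would hold 1.31 intervals at the density of the list, and 3 were found. The HAND2 pair, 1975 bp apart, makes up 2 of them, and neighbouring intervals are not independent, so no error is given for this count. The 5 windows without an interval summed to 449.4 kb, and at the density of the list they would hold 1.19 intervals. Distance was read in the same way, from windows as long as each gene alone. On its own chromosome, 69% of such windows were as far from an interval as FOXO1 or farther, 55.1% for WNT4, 50.7% for ZBTB16 and 90.5% for IGFBP1. For PRL the figure was 26%, so PRL was the most remote of the 7 by this measure too.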

How the data were processed

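EGR1 ChIP and input libraries of t-HESC cells were made and sequenced by the authors. The submitters' processing notes name MACS2 2.1.0, MACS, BWA and the build GRCh37.p2. How these were ordered and set, the calling threshold and the handling of duplicate reads are not given in the sources used. The positions of intervals and summits (unit: other) and 1 score per summit were used as deposited by the authors. The score has no stated unit. Both lists come from 1 ChIP library, so nothing was pooled.

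Gene spans on GRCh37 came with the choice of genes. The genes, lists and measures were chosen with earlier results of these data known. All 7 genes are named, with every interval within 10 kb, and the nearest one for a gene with none. Starts were taken as BED starts and are printed 1-based. Summits and intervals were paired line by line, and each summit lay inside its interval. Gene strand came from RefSeq promoter entries and gene order from RefSeq on GRCh38, and no GRCh38 position is printed. Windows were laid from the first to the last interval of a chromosome. A match to the EGR1 letters or the GC box was searched on both strands of the 250 bases before each start. Other genes of decidualization had been listed, but were not placed because no GRCh37 gene models were used here. Counting of intervals and distances was tested on simulated data. The scripts ran on Python 3.11.15 with pandas 2.3.3, numpy 2.4.6, matplotlib 3.10.9 and scipy 1.17.1.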

Additional observations from a re-analysis of the deposited data

How the results depend on the processing

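The 3 intervals at 2 genes, with a highest score of 22, were the same in number at distances of 5 kb and 20 kb. They were also the same in number when the summit had to lie in the window. Joining neighbours within 1 kb could not change the count. The HAND2 pair was 1975 bp apart and the CEBPB interval lay 78934 bp from any other. Joining over a longer distance was not run. At 50 kb there were 4 intervals at 3 genes, still with a highest score of 22. Inside gene bodies alone there was 1 interval at 1 gene. With the score limited to the median or above, or to the 90th percentile or above, there were 0 intervals at 0 genes. Distances of 100 and 500 kb were added after seeing the data: they gave 6 and 22 intervals, highest scores of 48 and 131, and, at 500 kb, 6 genes. The distance of 200 kb used above was not among the planned distances either. No share of windows with an interval was computed for 50, 100, 200 or 500 kb. On all chromosomes in place of the gene's own, the share of windows with an interval was 4.58% against 5.56% for CEBPB. It was 19.9% against 14.8% for FOXO1, 4.90% against 2.85% for HAND2 and 5.16% against 4.38% for IGFBP1. For PRL it was 6.99% against 6.04%, for WNT4 8.80% against 10.8% and for ZBTB16 27.6% against 30.0%. Only for ZBTB16 did the value lie inside the 95% binomial interval of the own-chromosome share, which takes windows as independent. No paired analysis was possible because the design has 1 ChIP and 1 input library and no test. Without replicates or read depth the values hold for 1 library, and a gene without a called interval is not shown to lack EGR1.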
